A study of Mus musculus with 6 samples.

Results

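The interleukin-1 (IL-1) family genes described here were the ligands Il1a, Il1b, Il18 and Il33, the receptor antagonist Il1rn, the receptor genes Il1r1, Il1rap, Il1rl1 and Il1r2, and the protease Casp1. They were found in the combined gene count table by their symbols, and all 10 were among its 33000 genes. RNA-seq libraries made with the Illumina TruSeq mRNA kit were available from the frontal cortex of C57BL/6 mice aged 3 months. Of the 6 libraries, 3 came from homozygous GFAP-IL6 mice and 3 from wild-type (WT) mice, each library from a separate mouse. The GFAP-IL6 mouse carries an Il6 transgene under the Gfap promoter, which is active mainly in astrocytes, and it is used as a model of neuroinflammation. The comparison asked how the transcripts of a second inflammatory cytokine family, ligands beside receptors, differed in cortex with astrocyte-driven IL-6. The Il6 counts do not separate the transgene from the mouse gene.

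IL-1 family cytokines are early alarm signals of innate immunity. A ligand binds its own receptor chain, an accessory chain then joins (IL1RAP for IL-1 and IL-33, IL18RAP for IL-18), and the adaptor MYD88 and the IRAK kinases pass the signal to NF-kB. IL-1 alpha and IL-33 can act when released from damaged cells, while IL-1 beta and IL-18 are cut to their active forms by caspase-1, and decoy receptors and a receptor antagonist restrain the system. In brain, endothelial cells are known as a main site of IL1R1, microglia as a source of IL-1, and astrocytes and oligodendrocytes as sources of IL-33.

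Library totals ran from 7.56 to 16.9 M counts, and every GFAP-IL6 library (up to 11.1 M) was shallower than every WT library (from 11.6 M; exact two-sided permutation p = 0.1, the smallest that 3 against 3 allows). A count of 0 in a library allowed a level of up to 0.179 to 0.396 CPM (counts per 1 M library counts), and this limit covers counting error only. The genotype was checked on Il6 itself, with counts of 0, 2 and 0 in WT against 12, 10 and 24 in the transgenic libraries. Gfap, the astrocyte filament gene, averaged 94.5 ± 24.8 CPM in WT cortex against 678 ± 179 CPM in the transgenic cortex (SD, n = 3 each). Neuron, astrocyte and oligodendrocyte markers were present in all libraries. WT replicate 3 stood apart in choroid plexus markers, with a summed 606 CPM against 3.22 to 59.0 in the others, and WT replicate 2 in striatal markers, with 285 CPM against 132 to 162. Calls were made with edgeR's quasi-likelihood test at a Benjamini-Hochberg adjusted p below 0.05 over the 15341 genes with enough counts to test.

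Il1r1 rose in GFAP-IL6 cortex by 2.06 on the log2 scale, Il1a rose by 1.24, and no other family member passed the test. Of the 10 genes, 6 had enough counts to be tested, and of these 2 were called higher, 0 lower and 4 not called. Over all genes tested, 2.86% were called and 2.65% were called higher. With the added requirement of a log2 fold change beyond 1, both genes remained called, against 1.38% of all genes. The CPM of the GFAP-IL6 and WT libraries did not overlap for the same 2 of the 6, which was so for 26.5% of all genes tested. The median log2 fold change was 0.057 over the 6 members and -0.004 over all genes. DESeq2 and limma-voom each called the same 2 members, and an unadjusted edgeR p below 0.05 was reached by these 2 and, in the lower direction, by 0.

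**Figure D1:**
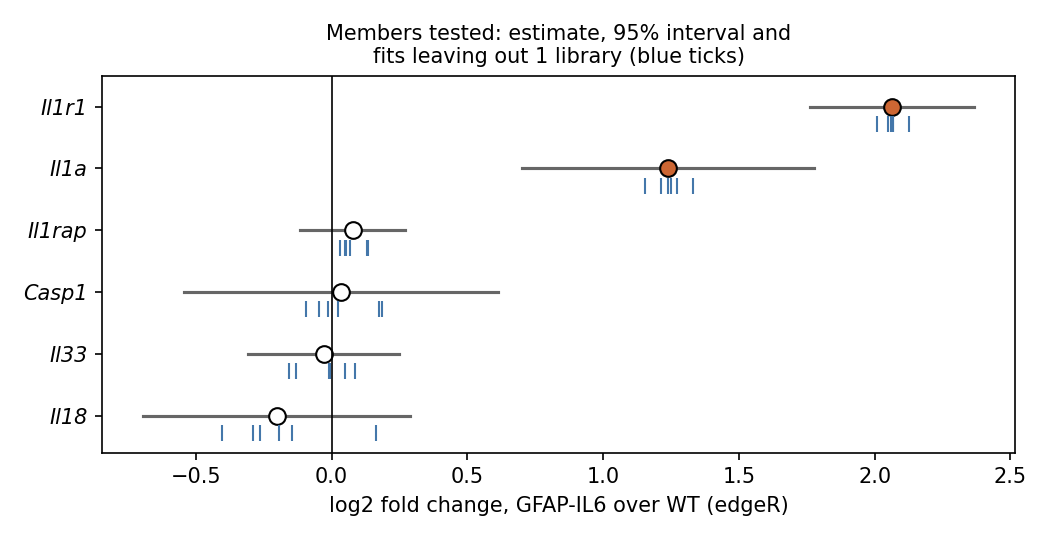
Log2 fold change of GFAP-IL6 over WT cortex from edgeR for the 6 tested IL-1 family genes, with 95% confidence intervals and, as blue ticks, the fits that left out 1 library. Il1r1 (2.06) and Il1a (1.24) lie to the right of 0, and the intervals of Casp1, Il18, Il1rap and Il33 span 0.

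Il1r1 (ENSMUSG00000026072.10, GRCm38 chr1:40225080-40317257, plus strand) encodes the signalling receptor for IL-1 alpha and IL-1 beta. The WT libraries held 48, 70 and 65 of its reads, and the transgenic libraries held 178, 132 and 168. Scaled to library size this gave 4.18, 4.18 and 4.08 CPM for WT against 16.0, 17.4 and 18.8 CPM for GFAP-IL6. The WT libraries were almost equal, and the lowest GFAP-IL6 library lay well above the highest of them. Means of 4.15 ± 0.056 CPM for WT and 17.4 ± 1.40 CPM for GFAP-IL6 (SD, n = 3 each) corresponded to a log2 fold change of 2.06 with SE 0.14, a 95% interval of 1.76 to 2.36 and an edgeR adjusted p of 5.3e-06. The log2 fold change lay between 2.01 and 2.13 when any single library was left out, and the gene was called in all 6 of these fits. It stood at 2.07 without WT replicate 2 and 2.05 without WT replicate 3, the libraries with striatal and choroid plexus signal.

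Il1a (ENSMUSG00000027399.1, chr2:129299610-129309972, minus strand) encodes IL-1 alpha, a ligand that is active without cleavage and signals through IL1R1. The WT libraries held 13, 23 and 24 of its reads, and the shallower transgenic libraries held 37, 23 and 29. Scaled to library size this gave 1.13, 1.37 and 1.51 CPM for WT against 3.32, 3.04 and 3.24 CPM for GFAP-IL6. All GFAP-IL6 libraries lay above all WT libraries. The mean rose from 1.34 ± 0.190 to 3.20 ± 0.144 CPM (SD, n = 3 each), a log2 fold change of 1.24 with SE 0.25, a 95% interval of 0.70 to 1.78 and an edgeR adjusted p of 0.0154. The call needed all 3 transgenic libraries. The adjusted p was 0.0795 without GFAP-IL6 replicate 1, 0.0544 without replicate 2 and 0.0886 without replicate 3, while the log2 fold change stayed between 1.15 and 1.33 over all 6 omissions. It was 1.25 without WT replicate 2 (adjusted p = 0.0249) and 1.33 without WT replicate 3 (adjusted p = 0.0370), called in both. Of the 1974 exon bases of Il1a, 222 overlap Gm14023 on the opposite strand, and the sources used here do not state whether strand was used in counting, so reads of the pair cannot be told apart there.

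**Figure D2:**
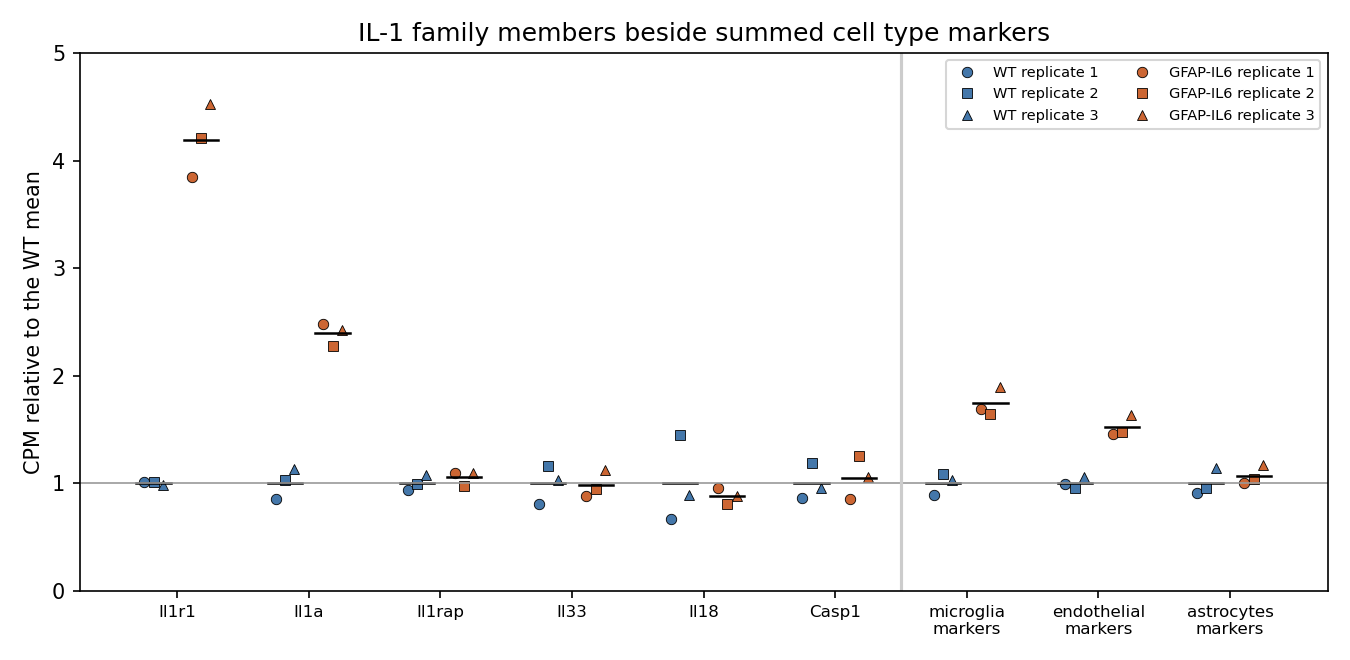
CPM of each tested IL-1 family gene, and summed CPM of microglial, endothelial and astrocyte markers, divided by the mean of the 3 WT libraries, with 1 point per library and a bar at each group mean. The GFAP-IL6 points of Il1r1 lie at 3.85, 4.20 and 4.52 and those of Il1a at 2.48, 2.27 and 2.42, above the microglial and endothelial markers, and for the other 4 genes the points of the 2 groups mix.

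The sequence before the transcription start is shown for the 2 genes that rose, to set the motif matches of each in view. RefSeq (GRCm38.p6) held 15 starts for the 10 genes, 1 for Il1a and 2 for Il1r1, which lie 41506 bases apart. The 250 bases before each start are given 5′ to 3′ on the strand of the gene, with motif matches in capitals, at chr2:129309973-129310222 for Il1a and at chr1:40224830-40225079 and chr1:40266336-40266585 for the upstream and downstream starts of Il1r1.
Il1a: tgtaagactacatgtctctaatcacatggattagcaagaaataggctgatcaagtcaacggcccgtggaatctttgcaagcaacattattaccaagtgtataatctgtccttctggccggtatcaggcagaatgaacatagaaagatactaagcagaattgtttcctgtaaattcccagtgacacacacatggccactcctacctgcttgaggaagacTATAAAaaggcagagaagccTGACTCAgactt
Il1r1, upstream start: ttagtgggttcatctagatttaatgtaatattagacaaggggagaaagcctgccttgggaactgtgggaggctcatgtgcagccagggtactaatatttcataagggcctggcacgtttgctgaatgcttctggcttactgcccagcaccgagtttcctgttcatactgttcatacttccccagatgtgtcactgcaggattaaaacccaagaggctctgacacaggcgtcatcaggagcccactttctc
Il1r1, downstream start: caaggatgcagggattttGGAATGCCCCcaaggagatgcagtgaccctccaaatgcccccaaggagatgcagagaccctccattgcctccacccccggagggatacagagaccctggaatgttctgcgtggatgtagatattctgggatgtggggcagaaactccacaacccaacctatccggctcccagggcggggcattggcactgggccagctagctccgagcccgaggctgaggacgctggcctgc
The capitals in Il1a mark a TATA box (TATAAA, gene strand alone) whose first base is 32 before the start and an AP-1 match (TGACTCA, either strand) 12 before it. The capitals in the downstream Il1r1 start mark an NF-kB motif match 232 before the start. Among all 32851 RefSeq starts, 7.59% held the TATA letters, 4.46% the AP-1 letters and 7.25% the NF-kB motif within 250 bases, and 7.02% held the STAT motif TTCNNNGAA, searched on both strands. Of the 15 starts of the family, 4 held the TATA letters, 2 AP-1, 1 NF-kB and 1 STAT, the last in Il1r2. The upstream Il1r1 start matched none of the 4 motifs. GC content was 48.4% and 60.4% at the upstream and downstream Il1r1 starts and 42.4% at Il1a, with a median of 52.4% over all starts. The gene counts do not separate the 2 Il1r1 starts, nor membrane from soluble forms of any receptor.

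Il33 and Il18, the most abundant ligand genes of the family, showed no difference that passed the test. Il33 (ENSMUSG00000024810.14, chr19:29925114-29960718), a nuclear alarmin that signals through the receptor encoded by Il1rl1, was read 528, 1109 and 935 times in the WT libraries, against 560, 409 and 573 times in the transgenic ones. The corresponding levels of 46.0, 66.1 and 58.7 CPM and 50.2, 54.0 and 64.0 CPM overlapped throughout. Its log2 fold change was -0.029 with SE 0.13 (95% interval -0.31 to 0.25, edgeR adjusted p = 0.920). Il18 (ENSMUSG00000039217.10, chr9:50554827-50581840), a caspase-1 substrate that induces interferon gamma, was read 112, 354 and 207 times in the WT libraries, against 155, 89 and 115 times in the transgenic ones. In CPM the WT libraries stood at 9.76, 21.1 and 13.0 and the transgenic ones at 13.9, 11.8 and 12.8, so that WT replicate 2 was the highest and the other 5 lay close together. The log2 fold change was -0.20 with SE 0.23 (95% interval -0.69 to 0.29, edgeR adjusted p = 0.643), and without WT replicate 2 it turned to 0.16 (adjusted p = 0.652).

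Il1b (ENSMUSG00000027398.11, chr2:129364570-129371139) encodes IL-1 beta, the form most often followed in inflammation, and it was near the detection limit in every library. The WT libraries held 3, 8 and 4 of its reads and the transgenic libraries 10, 2 and 5, which overlapped, and it did not enter the test. The ratio of depth-scaled counts, GFAP-IL6 over WT, was 1.81 with an exact 95% interval of 0.849 to 3.89 that covers counting error only. Of 1907 exon bases, 25 overlap Il1bos on the opposite strand. Il1rn (ENSMUSG00000026981.13, chr2:24336853-24351494), the secreted antagonist that blocks IL1R1, had no read in any WT library, against 0, 1 and 1 in the transgenic ones. A difference in Il1rn was not detectable at this depth.

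Among the receptor genes the accessory chain Il1rap (ENSMUSG00000022514.12, chr16:26581704-26730117), which IL1R1 and IL1RL1 both need to signal, was the most abundant in both genotypes. Its counts of 488, 758 and 785 in WT against 558, 337 and 448 in the transgenic libraries were 42.5, 45.2 and 49.3 CPM against 50.0, 44.5 and 50.0 CPM. The groups overlapped. Its log2 fold change of 0.078 with SE 0.09 (edgeR adjusted p = 0.651) had a 95% interval of -0.12 to 0.27, whose upper end lies below the lower end of 1.76 for Il1r1. Of its 11360 exon bases, 552 overlap Gm20319 on the opposite strand.

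The other receptor genes were rare. Il1rl1 (ENSMUSG00000026069.13, chr1:40429570-40465415), the IL-33 receptor also known as ST2, was read 3, 8 and 4 times in the WT libraries, against 4, 1 and 3 times in the transgenic ones, a ratio of 0.851 (exact 95% interval 0.312 to 2.14). Il1r2 (ENSMUSG00000026073.11, chr1:40074079-40125231), a decoy that binds IL-1 without signalling, was read 3, 7 and 5 times in the WT libraries, against once in each transgenic one. The GFAP-IL6 libraries all lay below the WT libraries for Il1r2, but the ratio of 0.319 had an exact 95% interval of 0.0592 to 1.13. In an edgeR fit without the count filter the log2 fold change of Il1r2 was -1.55 with an adjusted p of 0.402.

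Il1r2, Il1r1 and Il1rl1 lie next to other receptor genes of the family in a cluster on chr1 that also holds Il1rl2, Il18r1 and Il18rap, all on the plus strand. Il1rl2 (chr1:40324610-40367562), the receptor for the IL-36 cytokines, begins just past the end of Il1r1 and had a log2 fold change of 0.44 that was not called (edgeR adjusted p = 0.512). Il18r1 (chr1:40465552-40500854) was read 0, 0 and 1 times in WT, against 0, 0 and 3 in the transgenic libraries. Il18rap (chr1:40515362-40551705), the accessory chain for IL-18, was read 1, 0 and 0 times in WT, against 7, 3 and 5 in the transgenic libraries, a ratio of 23.9 (exact 95% interval 3.68 to 1008) on few reads, and was picked after its values were seen. The interval covers counting error only. Of these 6 neighbouring genes, 2 were tested and Il1r1 alone was called.

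Casp1 (ENSMUSG00000025888.5, chr9:5298517-5307265), which encodes the protease that matures IL-1 beta and IL-18, was read 21, 42 and 32 times in the WT libraries, against 20 times in each transgenic one. In CPM the WT libraries stood at 1.83, 2.51 and 2.01 and the transgenic ones at 1.79, 2.64 and 2.23, and the groups overlapped. The log2 fold change was 0.035 with SE 0.27 (95% interval -0.54 to 0.61, edgeR adjusted p = 0.954).

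**Figure D3:**
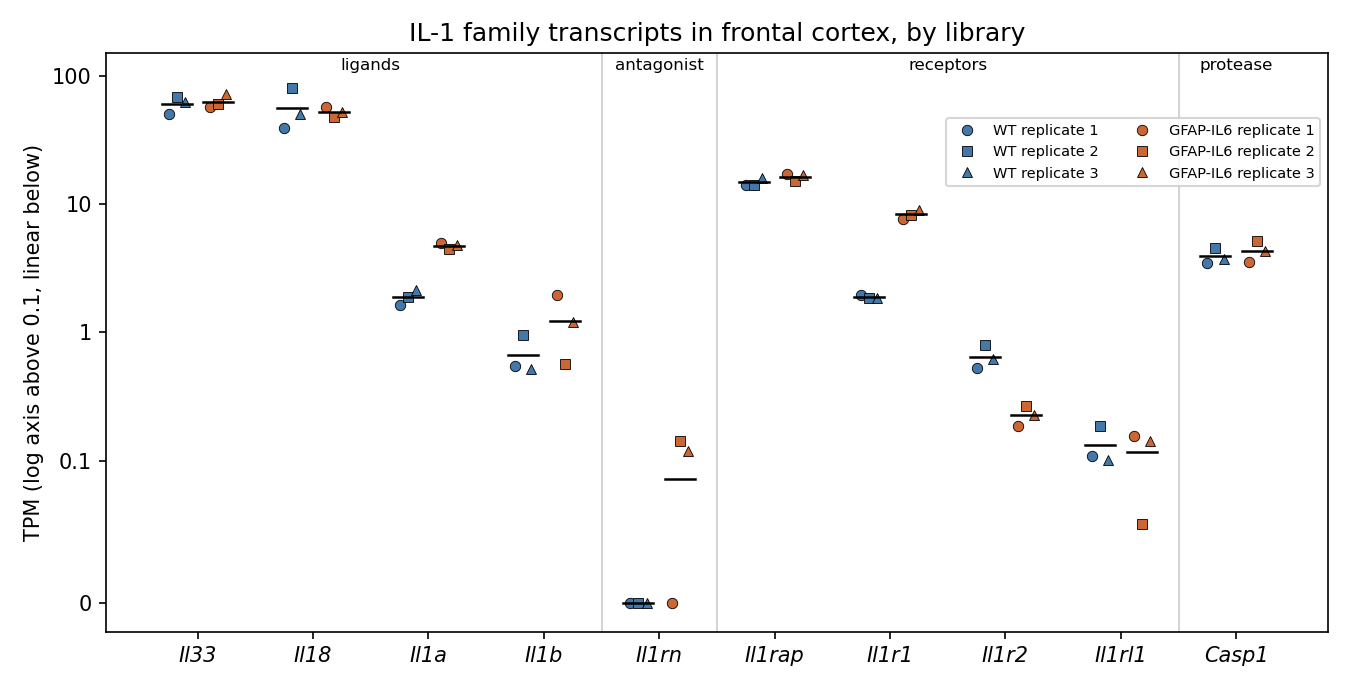
Level of each of the 10 IL-1 family genes in each library in TPM, which divides by gene length, on an axis that is linear near 0 and logarithmic above, with 1 point per library and a bar at each group mean. Il33 and Il18 are highest in both genotypes, and Il1r1 and Il1a are the genes whose 3 GFAP-IL6 points lie above all WT points among those tested.

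Per length, in TPM (transcripts per 1 M), the order of the levels in WT cortex was Il33, Il18, Il1rap, Casp1, Il1r1, Il1a, Il1b, Il1r2, Il1rl1 and Il1rn. Il33 at 60.5 ± 9.17 TPM and Il18 at 56.4 ± 20.9 TPM overlapped (SD, n = 3), as did Il1r1 with Il1a and Il1b with Il1r2. Il1rap followed at 14.7 ± 1.04 TPM and Casp1 at 3.91 ± 0.531 TPM (SD, n = 3), each apart from its neighbours. In GFAP-IL6 cortex Il1r1 at 8.28 ± 0.608 TPM and Il1a at 4.72 ± 0.252 TPM (SD, n = 3) stood above or beside Casp1 at 4.32 ± 0.788 TPM. Il1r1 thus moved from the fifth to the fourth place, above all libraries of Casp1, while Il1a overlapped Casp1. In WT cortex both IL-1 receptor and IL-1 alpha message had been at 1.88 TPM.

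Set side by side by role, the summed receptor level separated the genotypes, mainly through Il1r1. The summed ligand level, mostly Il33 and Il18, did not. The summed level of the 4 ligands was 91.6, 151 and 116 TPM for WT against 121, 113 and 129 TPM for GFAP-IL6, a ratio of means of 1.01 with overlapping groups. The summed level of the 4 receptor genes was 16.7, 17.0 and 18.5 TPM for WT against 25.2, 23.5 and 26.2 TPM for GFAP-IL6, a ratio of 1.44 with no overlap. These sums are given as a description, with no test. Mean Il1r1 went from 1.88 TPM in WT to 8.28 TPM in GFAP-IL6 and mean Il1rap from 14.7 to 16.3 TPM. The means of Il1rl1 and Il1r2 did not rise. The ligand sum hardly reflects Il1a, which was called higher. Il1r1 made up 10.9% of receptor TPM on average in WT libraries, with a highest share of 11.7%, and 33.2% on average in the transgenic ones, with a lowest share of 30.6%, while the mean share of Il1rap was 84.7% and 65.4%. On the ligand side Il33 held 51.5% of TPM in WT and 51.7% in GFAP-IL6 and Il18 46.4% and 43.3%, and Il1a held 1.62% and 3.91%.

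**Figure D4:**
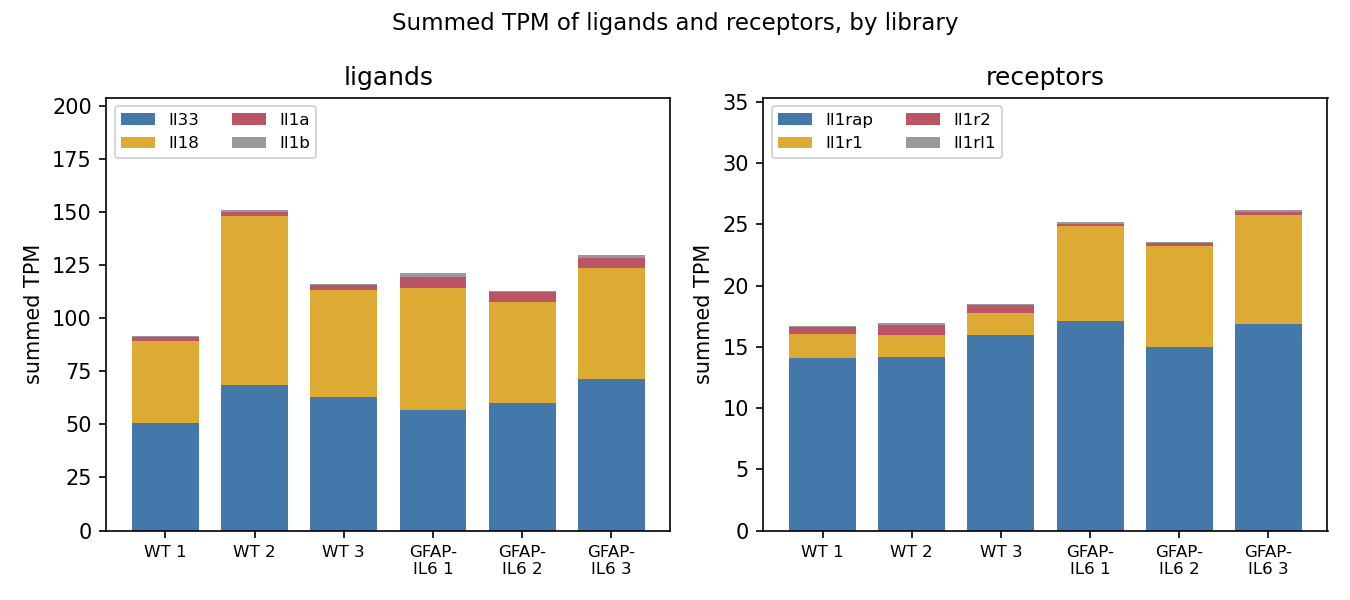
Summed TPM of the 4 ligands (Il1a, Il1b, Il18, Il33) and of the 4 receptor genes (Il1r1, Il1rap, Il1rl1, Il1r2) in each library, with the part of each gene. The ligand sums of the 2 groups overlap, and the receptor sums of 23.5 to 26.2 TPM in GFAP-IL6 libraries lie above those of 16.7 to 18.5 TPM in WT, with a taller Il1r1 part in each.

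Most markers of microglia and of endothelial cells were called higher in GFAP-IL6 cortex, as were Il1r1 and Il1a. In bulk tissue, more cells of a type and more RNA per cell cannot be told apart. Of 8 microglial markers 6 (75%) were called higher, against 2.65% of all genes tested, with a median log2 fold change of 0.77. Among the 8, 7 had a positive log2 fold change, up to 2.03 for Itgam, while P2ry12 stood at -0.27 (not called). The summed level of the 8 ran from 366 to 447 CPM in WT and from 676 to 780 CPM in GFAP-IL6 libraries. Of 7 endothelial markers 4 (57.1%) were called higher, with a median of 0.54. Their summed level ran from 169 to 188 CPM in WT and from 258 to 291 CPM in GFAP-IL6. Set against the summed endothelial level, Il1r1 amounted to 2.34 ± 0.152% for WT and 6.42 ± 0.225% for GFAP-IL6 (SD, n = 3 each), so it was 2.75 times as high relative to these markers. Set against the summed microglial level, Il1a amounted to 0.324 ± 0.028% for WT and 0.447 ± 0.031% for GFAP-IL6 (SD, n = 3 each), 1.38 times as high, with no overlap in either case.

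The summed microglial level in GFAP-IL6 cortex was 1.74 times the WT mean, while Casp1 and Il18 showed no called difference. Relative to these markers, as for any gene without a rise, their levels were therefore lower. Casp1 went from 0.512% to 0.312% of the summed microglial level, 0.608 times the WT value, and Il18 from 3.49% to 1.79%, 0.514 times, with no overlap between the groups. The highest Il18 share, 4.72%, was that of WT replicate 2, and against the summed striatal markers, which were highest in that library, Il18 went from 7.63% to 8.88%, 1.16 times, with overlap. None of the 6 astrocyte, 6 oligodendrocyte or 6 neuron markers was called by edgeR, although Aqp4 was called higher by DESeq2, and at an unadjusted p below 0.05 there were 2 astrocyte, 0 oligodendrocyte and 3 neuron markers. These were Aqp4 on the higher side (log2 fold change 0.42) and Aldh1l1 (-0.21), Gad1 (-0.22), Gad2 (-0.17) and Snap25 (-0.20) on the lower side. The groups did not overlap in any of these 5, which were picked by that p, and 26.5% of all genes tested did not overlap. Il33 amounted to 1.02% of the summed astrocyte level in WT and 0.935% in GFAP-IL6, with overlap. Neutrophil markers reached at most 4 counts and mast cell markers at most 2 in any library. Of 5 T cell markers, 1 was tested and not called, and the summed level of the 5 was 0.871 to 2.62 CPM in WT and 1.12 to 2.06 CPM in GFAP-IL6 libraries. Cd3d was at 0 throughout and Cd3g reached at most 1 count. Cd3e, at 0 in every WT library, was read 3, 1 and 2 times in the transgenic ones, and Cd8a 1, 0 and 1 against 2, 1 and 3 times. Neither overlapped in CPM, but no library held more than 3 reads of either gene. The Cd8a ratio was 4.79 (exact 95% interval 0.856 to 48.5, counting error only). Of 6 monocyte and macrophage markers, 2 were tested and not called, with summed levels of 5.75 to 8.59 CPM in WT and 7.08 to 11.5 CPM in GFAP-IL6 libraries. Ccr2, which was not tested, was read 2, 11 and 8 times in WT, against 14, 5 and 13 in the transgenic libraries, with no overlap in CPM and a ratio of 2.43 (exact 95% interval 1.36 to 4.44), and Ly6c2 reached at most 1 count. The interval for Ccr2 covers counting error only. The part of cell composition in these results was not tested.

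The wider IL-1 pathway was read from 56 listed genes, all in the table, of which 37 were tested. Of these 8 were called higher (21.6%) and 0 lower, while over all genes tested 2.86% were called and 2.65% were called higher. The 8 included Il6, the product of the transgene, whose rise was set by the genotype itself. The median log2 fold change was 0.35, against -0.004 over all genes. No gene of the list was lower at an unadjusted edgeR p below 0.05, or called lower by DESeq2 or limma-voom. The calls fell on 1 receptor, 3 inflammasome genes and 4 response genes.

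**Figure D5:**
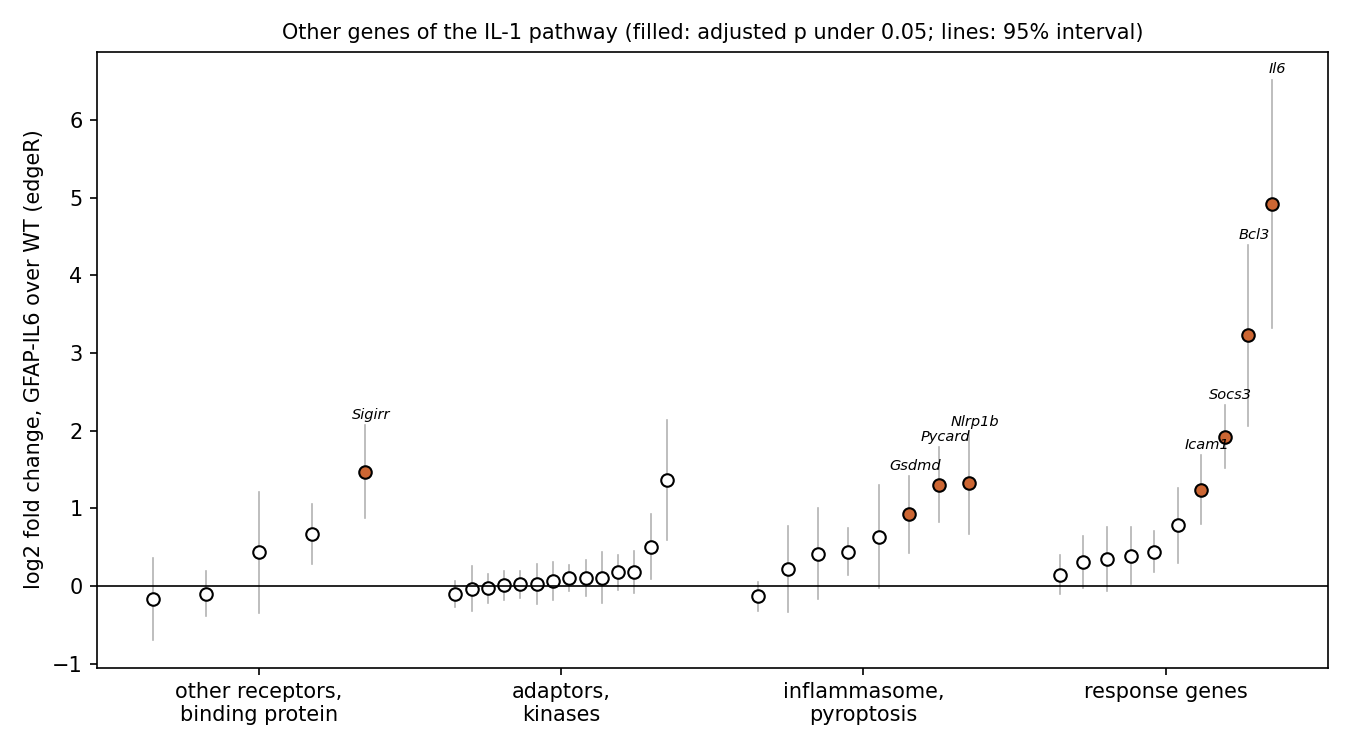
Log2 fold change of GFAP-IL6 over WT from edgeR for the tested genes of each IL-1 pathway list, with 1 point per gene, lines for 95% intervals and called genes filled. Among the adaptors and kinases, with a median of 0.085, none is filled, and the called pathway genes are all on the higher side.

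Of the other ligands of the family (the IL-36 and IL-38 group), 5 genes were in the table, 4 of them with 0 counts in all libraries, and none was tested. Of 5 further receptor and binding protein genes tested, Sigirr was called. Sigirr encodes a receptor that dampens IL-1 and Toll-like receptor signalling, and it was read 12, 14 and 16 times in WT, against 31, 17 and 26 in the transgenic libraries. Its level rose from 0.962 ± 0.111 to 2.64 ± 0.349 CPM (SD, n = 3), a log2 fold change of 1.47 with SE 0.28 and an edgeR adjusted p of 0.0105. The call was lost without GFAP-IL6 replicate 1 (adjusted p = 0.0640) or replicate 3 (0.0849). The IL-18 binding protein gene Il18bp, a soluble inhibitor of IL-18, had a log2 fold change of 0.67 with an adjusted p of 0.068, and the synaptic relatives Il1rapl1 and Il1rapl2 had -0.097 and -0.16, none of them called.

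The shared signalling machinery below the receptor showed no called gene. All 14 adaptor and kinase genes were tested, with a median log2 fold change of 0.085, and 0 were called by edgeR, DESeq2 or limma-voom. Over all genes tested, edgeR called 2.86%. The most abundant, Tollip, Map3k7 and Tab2, had log2 fold changes of -0.10, 0.023 and 0.11. At an unadjusted p below 0.05 there were 2, both higher. These were the adaptor Myd88, with a log2 fold change of 0.51 and an adjusted p of 0.173, and Irak3, a negative regulator, with 1.37 and an adjusted p of 0.0631, named here after their values were seen.

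Of 8 inflammasome and pyroptosis genes tested, 3 (37.5%) were called higher, against 2.65% of all genes tested. All 3 had low counts, and Casp1 itself was not called. Pycard, the adaptor ASC that links sensors to caspase-1, was read 20, 42 and 40 times in WT, against 59, 38 and 60 in the transgenic libraries, and rose from 2.25 ± 0.442 to 5.67 ± 0.902 CPM (SD, n = 3). Its log2 fold change was 1.31 with SE 0.22 (edgeR adjusted p = 0.00596, and 0.0640 without GFAP-IL6 replicate 3). Nlrp1b, an inflammasome sensor, rose by 1.33 on the log2 scale with SE 0.30 (adjusted p = 0.0334), and Gsdmd, which forms the pyroptotic pore, by 0.92 with SE 0.23 (adjusted p = 0.0499). Neither held with DESeq2, where the adjusted p was 0.0830 for Nlrp1b and 0.0947 for Gsdmd. Leaving out 1 library ended the Nlrp1b call in 4 of 6 fits and the Gsdmd call in 5 of 6. Nlrp1b has the close relative Nlrp1a, so the split of reads between them is uncertain. Nlrp3, the best known sensor, had a log2 fold change of 0.64 with an adjusted p of 0.26, and Nek7, P2rx7 and Aim2 had -0.13, 0.45 and 0.22, none called. Casp4, the mouse caspase-11 gene, was not tested and was read 3, 5 and 10 times in WT, against 9, 14 and 17 in the transgenic libraries. The ratio was 3.55 (exact 95% interval 1.99 to 6.57, counting error only), and Casp4 too was picked after its values were seen.

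Of 18 genes known to respond to IL-1, 10 were tested and 4 (40%) were called higher, against 2.65% of all genes tested. The median log2 fold change was 0.62. The 4 included Il6, the product of the transgene, whose rise was set by the genotype itself. Socs3, a feedback inhibitor of STAT3 signalling that IL-6 also induces, was read 28, 47 and 47 times in WT, against 112, 68 and 110 in the transgenic libraries, and rose from 2.73 ± 0.264 to 10.4 ± 1.68 CPM (SD, n = 3). Its log2 fold change was 1.92 with SE 0.19 (edgeR adjusted p = 7.4e-05). Icam1, an endothelial adhesion molecule, rose from 2.65 ± 0.182 to 6.26 ± 1.11 CPM (SD, n = 3), by 1.24 on the log2 scale with SE 0.20 (adjusted p = 0.00442). Both were called in all 6 fits that left out 1 library. Bcl3, an atypical IkB protein, was read 4, 0 and 8 times in WT, against 26, 17 and 30 in the transgenic libraries, a log2 fold change of 3.23 with SE 0.54 (adjusted p = 0.00463, and 0.0586 without GFAP-IL6 replicate 3). The most abundant response genes, Vcam1, Ptgs2 and Nfkbia, had log2 fold changes of 0.31, 0.44 and 0.15 and were not called.

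In both genotypes the classical chemokine targets of IL-1 and the acute-phase gene Saa3 were at or near 0. Lcn2 was so in every WT library, but not in every GFAP-IL6 library. Cxcl2 had 0 counts in all libraries and Cxcl1 at most 1. Ccl2 was read 0, 3 and 0 times in WT, against 5, 3 and 2 in the transgenic libraries, Cxcl10 1, 0 and 3 against 2, 2 and 5, and Saa3 0, 0 and 0 against 2, 0 and 4. None of these 5 genes exceeded 5 counts in any library. The ratio was 5.32 for Ccl2 (exact 95% interval 1.37 to 30.1), whose groups did not overlap in CPM, and 3.59 for Cxcl10 (1.002 to 16.0), whose groups did. Lcn2, an acute-phase protein gene of reactive astrocytes, was read 0, 1 and 0 times in WT, against 1, 21 and 15 in the transgenic libraries, a ratio of 59.0 (exact 95% interval 9.96 to 2394) in which GFAP-IL6 replicate 1 lay near the WT libraries. Sele, encoding E-selectin on activated endothelium, was read once in each WT library, against 6, 12 and 13 times in the transgenic ones, with no overlap and a ratio of 16.5 (exact 95% interval 5.14 to 84.3). Zc3h12a, an RNase that degrades cytokine transcripts, was read 6, 11 and 7 times in WT, against 13, 5 and 14 in the transgenic libraries, a ratio of 2.13 (exact 95% interval 1.21 to 3.77). The exact intervals cover counting error only, not the spread between mice. None of these 8 genes entered the edgeR test, while DESeq2, which tests more genes, called Sele.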

How the data were processed

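The authors aligned the TruSeq reads with STAR 2.4 to the mouse genome and assigned them to GENCODE genes with featureCounts of the Subread package, and deposited raw read counts per gene with each gene's length. The submitters' processing notes list a human build, whereas the methods of the study name the mouse one. All members matched the chromosome and strand of GENCODE M21 (GRCm38), which gave their positions, and 32593 of 33000 gene identifiers matched it. The strand setting of the counting is not given in the sources used here.

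The 10 members, the pathway and marker lists and the tests were chosen with earlier results of these data known. Named genes are all members, the pathway genes called, up to 3 of the most abundant tested genes of each list that were not called, the untested response genes, marker genes at or near 0, and Il6 and Gfap. Other genes named (Nlrp3, Myd88, Irak3, Casp4, Il1rl2, Il18r1, Il18rap, Ccr2, Itgam, P2ry12 and the astrocyte and neuron markers at an unadjusted p below 0.05) were chosen after their values were seen. The pathway list also held second names of 4 IL-36 genes, which were counted once. The NF-kB motif was searched first in a different form (4.65% of all starts, 2 of the 15 family starts) and the form reported was adopted after that result was seen. Counts were tested in edgeR 4.0.16 (R 4.3.3) with TMM scaling, filterByExpr and the quasi-likelihood test on all 6 libraries. DESeq2 1.42.0, limma 3.58.1 (voom), RLE scaling, no filter, thinning to the smallest library, a replicate block and leaving out each library were the alternatives. CPM are TMM-scaled, and TPM were computed from the counts and deposited lengths. A floor of 3 counts per library set the detection limit in CPM. Count ratios of untested genes were taken from the summed counts of each group without this floor, and carry exact 95% binomial intervals. These intervals pool the reads of each group and do not cover the spread between mice. The fits were tested on simulated counts. No 2 libraries agreed within counting noise, with a chi-square per degree of freedom of 2.23 to 20.1 over 15 pairs. Replicates are separate mice.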

Additional observations from a re-analysis of the deposited data

How the results depend on the processing

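Il1r1 kept its direction and its call under every alternative run, and Il1a kept its direction under every one and its call in all but the 3 fits that left out a GFAP-IL6 replicate. Of the members that were not called, 3 changed sign in some fits. When a library was left out, the log2 fold change of Il18 ran from -0.40 to 0.16 (the highest without WT replicate 2), that of Il33 from -0.16 to 0.088, and that of Casp1 from -0.094 to 0.19, and Casp1 stood at -0.078 after thinning. The cause was not tested. The number of members called stayed at 2 in the other fits and ranged from 1 to 2 when a library was left out. The number of pathway genes called was 17 without the count filter, which tests more genes, and ranged from 3 to 10 when a library was left out, with the lowest without GFAP-IL6 replicate 3. Over all genes, 439 were called in the reported fit, 442 with RLE scaling, 514 with DESeq2, 424 with limma-voom, 385 after thinning and 1154 without the filter, and from 187 (without GFAP-IL6 replicate 3) to 1061 (without WT replicate 1) when a library was left out. The log2 ratio of summed ligand levels was 0.020 in TPM. When a library was left out, it ran from -0.14 (without WT replicate 1) to 0.22 (without WT replicate 2). The log2 ratio of summed receptor levels was 0.52 in TPM and 0.39 in CPM. CPM weight Il1rap more because its transcript is longer, and they are TMM-scaled while TPM are not. The part of each in this gap was not tested.

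Same-numbered libraries of the 2 groups deviated together with correlations of 0.015 to 0.1, against -0.077 to 0.052 for other pairs. As these were not all over the set limit of 0.1, the samples were treated as unpaired. Such a limit cannot exclude a pairing. With the replicate block 750 genes were called, 2 of them members and 10 of them pathway genes, and 438 of the 439 calls were shared.

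Il1b, Il1rn, Il1rl1, Il1r2 and the chemokine targets had too few counts to pass the count filter. The part of depth and of low expression in this was not tested. Without the filter, edgeR gave the 4 members adjusted p-values of 0.402 (Il1r2) to 0.916 (Il1rl1). At an equal level, the shallower GFAP-IL6 libraries would hold fewer reads of each gene.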
